A study of Mus musculus with 2 samples.

Results

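The genes described here bear family names of enzymes that write or erase methyl groups on histone lysines, although not all are known to do so. They were taken as the protein-coding genes whose GENCODE M21 symbol begins with Kdm, Kmt, Setd, Prdm, Ehmt or Suv39h, which gave 53 genes of the 21474 annotated protein-coding genes and the 43346 Ensembl genes measured. The rule used names alone and no measured value, although it was chosen with earlier results of these data known. Poly(A) RNA of whole testis was sequenced in 2 libraries, replicates 1 and 2, from adult male C57BL/6J mice aged 8 weeks that the labels call littermates. No allele, agent or treatment is named for either library. The labels give both libraries 1 donor identifier, so an SD below (n = 2 throughout) measures the spread between these samples, which may be technical. All tests between groups were out of reach, because the design holds 1 group.

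Histone lysine methylation is set by methyltransferases, most of which carry a SET domain, and is removed by amine oxidases of the LSD family or by oxygenases with a Jumonji C (JmjC) domain. Methylation of H3K4 and H3K36 is found at active genes, while H3K9 and H3K27 methylation marks silent chromatin and H4K20 methylation is tied to chromosome compaction and repair. In the testis these marks change as germ cells enter meiosis, as the sex chromosomes are silenced in spermatocytes, and as spermatids exchange most of their histones for protamines.

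Expected counts in Ensembl genes summed to 49023238 in replicate 1 and 51465728 in replicate 2, of which the 53 genes held 0.281% and 0.285%. The tissue label was met by the marker genes. Elongating spermatid markers (Prm1, Prm2, Tnp1, Tnp2, Odf1 and Smcp) summed to 71282 and 67454 TPM (transcripts per 1e6, a level scaled for transcript length), and the spermatogonial, Sertoli, Leydig and macrophage markers were all detected. The libraries were not alike in other tissue. The 5 epididymis markers (Crisp1, Lcn5, Lcn8, Adam7 and Spink8) summed to 655 TPM in replicate 1 and 0.45 in replicate 2. None of the 5 was detected in both, and Lcn5, Lcn8 and Adam7 were at 0 in replicate 2. In replicate 1 Crisp1 had 454 TPM, Spink8 194 and Adam7 6.87, while Lcn5 and Lcn8 had only 2 and 1 counts. All 5 peritubular markers were detected and summed to 296 and 140 TPM, and the 3 skeletal muscle markers (Acta1, Ckm and Myh4) summed to 18.8 and 1.88 TPM. In bulk RNA, fewer cells of a type and less RNA per cell cannot be told apart.

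Of the 53 genes, 46 (86.8%) were detected, meaning that neither library had a TPM under 1. Among all annotated protein-coding genes 62.1% were detected. The 7 others were Prdm1, Prdm6, Prdm12, Prdm13 and Prdm14, low in both libraries, and Kdm4c and Kdm5d, which passed a TPM of 1 in replicate 2 only. The median level over the 53 genes was 6.58 ± 0.247 TPM, against 3.58 over all protein-coding genes. Among detected genes alone the order turned round, with a median of 9.07 ± 0.488 TPM for the 46 and 12.9 for the 13340 detected protein-coding genes. The set was therefore widely present at moderate level. Of the detected genes, 16 had a mean TPM under 5, 7 lay from 5 to 10, 12 from 10 to 30, and 11 at 30 or more.

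**Figure D1:**
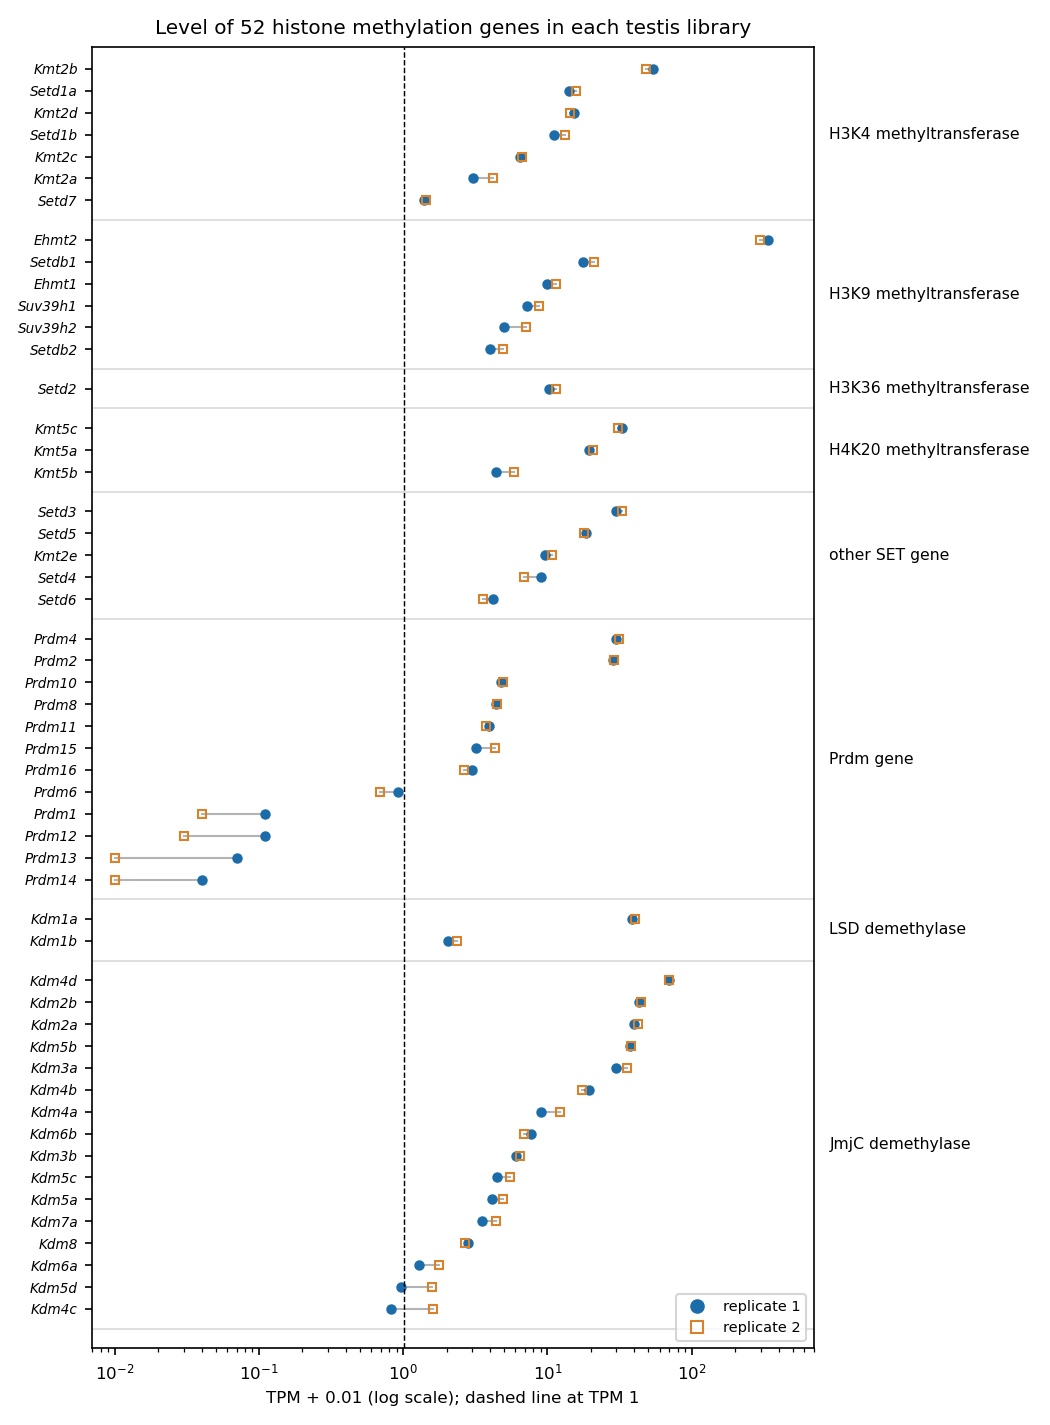
TPM of 52 of the 53 genes (horizontal axis, TPM + 0.01 on a log scale) in replicate 1 (filled circles) and replicate 2 (open squares), grouped by role and ordered by mean level within a role. Ehmt2 stands alone above a TPM of 100, the dashed line marks a TPM of 1, and 4 Prdm genes lie near 0.

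A single gene took a large share of the whole set. Ehmt2 had 340.2 TPM in replicate 1 and 297 in replicate 2, which was 33.1% and 29.3% of the summed level of the 53 genes (1028 and 1014 TPM). It ranked 491 among the protein-coding genes. The next genes were Kdm4d, Kmt2b, Kdm2b, Kdm2a, Kdm1a and Kdm5b, all between 37.5 and 69.4 TPM in each library. The order was alike in both libraries, with a Pearson r of 0.994 across the 53 genes on log2(TPM + 1) and a Spearman rho of 0.992. These are across genes that share 2 libraries, and genes are not independent replicates. Of 52 neighbouring pairs in the order, 18 had ranges that did not overlap, so the order within the middle of the list was mostly not resolved by the spread between libraries.

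The start sites of these genes were rich in CpG, a feature the choice by name did not use. Of the 53 genes, 41 were in the RefSeq promoter table and 38 had a start within 1000 bases of the annotated 5′ end. The 250 bases before the start held a median of 19 CpG in these 38 genes, 14.5 in the 13420 windows of detected protein-coding genes and 6 in all 32849 windows of the table. The sets were not chosen alike. Members kept only the window nearest the annotated 5′ end, while the other windows were taken without that choice or the distance limit. The 4 matched genes that were not detected had a median of 8.5. Windows of the highest and the second highest gene are shown on GRCm38, which is mm10, with each CG in capitals, for Ehmt2 at chr17:34898224-34898473 on the plus strand (18 CpG) and for Kdm4d at chr9:14500483-14500732 on the minus strand (14 CpG).
Ehmt2: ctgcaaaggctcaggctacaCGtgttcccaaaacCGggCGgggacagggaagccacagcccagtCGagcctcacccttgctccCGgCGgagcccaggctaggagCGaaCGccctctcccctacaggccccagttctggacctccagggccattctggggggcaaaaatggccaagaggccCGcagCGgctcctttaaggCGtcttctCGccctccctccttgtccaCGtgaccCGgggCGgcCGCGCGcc
Kdm4d: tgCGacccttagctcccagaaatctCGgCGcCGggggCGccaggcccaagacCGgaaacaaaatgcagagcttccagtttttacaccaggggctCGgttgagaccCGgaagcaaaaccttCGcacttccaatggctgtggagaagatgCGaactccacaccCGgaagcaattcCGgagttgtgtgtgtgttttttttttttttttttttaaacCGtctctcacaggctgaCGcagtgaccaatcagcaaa
The base composition differed between them, at 67.6% G or C for Ehmt2 and 51.6% for Kdm4d. Kdm4c, one of the lowest genes, had no CpG in its window and was the only 1 of the 38 genes with fewer than 5.

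Short motifs were searched on both strands of the same windows. GGGCGG, the core of a GC box, was in 24 of 38 windows (63.2%), in 54.6% of the windows of detected protein-coding genes and in 32.7% of all windows. CCAAT was in 18 (47.4%, against 35.1% and 33.8%). TATAAA was in 1 (2.63%, against 6.59% and 12.4%), that of the Y-linked gene Kdm5d. TGACGTCA, the palindrome bound by CREB family factors, was in 1 (2.63%, against 2.47% and 1.55%). None of the 4 motifs holds another, GGGCGG and TGACGTCA each hold a CG, and a match describes these letters alone.

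All 7 H3K4 methyltransferase genes were detected, with a median of 12.2 ± 1.46 TPM. Kmt2b, which encodes an enzyme of the trithorax type and lies at chr7:30568858-30588726 on the minus strand of mm10, led with 54.1 and 48.5 TPM in replicates 1 and 2. Setd1a and Setd1b, for the enzymes that make most H3K4 trimethylation, had 14.2 and 15.8 TPM and 11.2 and 13.2 TPM. The ranges of these 2 did not overlap, although Setd1a was only 1.27-fold and 1.19-fold higher. Kmt2d and Kmt2c, for enzymes that methylate enhancers, had 15.2 and 14.2 TPM and 6.47 and 6.69 TPM. Kmt2a, the gene altered in mixed lineage leukaemia, was low at 3.05 and 4.21 TPM. Setd7, for a monomethyltransferase that also acts on other proteins, was lowest at 1.38 and 1.43 TPM.

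All 6 H3K9 methyltransferase genes were detected, with a median of 9.31 ± 1.05 TPM and a sum of 384 and 350.3 TPM. In transcripts annotated as protein coding, complete or not, the median was 4.97 TPM and the sum 217 and 186.4 TPM. Ehmt2, also called G9a, makes H3K9 mono- and dimethylation together with its partner Ehmt1. It lies at chr17:34898469-34914052 on the plus strand of mm10. Without it the other 5 genes summed to 43.9 and 53.05 TPM. Ehmt1 had 9.91 and 11.4 TPM, far below its partner in both libraries. Setdb1, the methyltransferase recruited by Trim28 to silence retroelements, had 17.7 and 20.99 TPM, and its relative Setdb2 had 4.0 and 4.87 TPM.

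Suv39h1 and Suv39h2, whose products trimethylate H3K9 at heterochromatin, were close at the gene level. Suv39h1, on the X chromosome, had 7.23 and 8.67 TPM. Suv39h2, the copy known for its expression in testis, lies at chr2:3455815-3475031 on the minus strand and had 4.99 and 7.08 TPM. The ranges of the pair did not overlap, and Suv39h1 was 1.45-fold and 1.22-fold higher. Most of the Suv39h2 level was assigned to a transcript that the annotation marks for nonsense-mediated decay, the surveillance that degrades messages with an early stop codon. Suv39h2-204 had 3.23 and 5.21 TPM, and the complete coding transcript Suv39h2-201 had 1.64 and 1.77 TPM.

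The difference between these 2 transcripts is shown by their sequences. Suv39h2-204 lacks exon 2 of Suv39h2-201, a wholly coding exon of 146 bases at chr2:3472502-3472647 of mm10, minus strand. Its length leaves a remainder of 2 when divided by 3, so the reading frame changes when it is left out. The skipped exon is printed first, in lower case. In the 3 junctions after it, lower case is the end of the upstream exon and capitals mark the start of the downstream exon. The last line is the stop codon reached in Suv39h2-204, in capitals with 12 bases on each side.
Suv39h2-201 exon 2: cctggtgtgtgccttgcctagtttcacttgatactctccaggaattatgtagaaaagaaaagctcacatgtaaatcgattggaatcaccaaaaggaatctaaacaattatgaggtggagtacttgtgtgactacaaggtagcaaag
Suv39h2-204 exon 1 to exon 2: gtgccttattcaaggGGTGTGGAATATTAT
Suv39h2-201 exon 1 to exon 2: gtgccttattcaaggCCTGGTGTGTGCCTT
Suv39h2-201 exon 2 to exon 3: tacaaggtagcaaagGGTGTGGAATATTAT
Suv39h2-204 stop codon: gcggcagttctcTGAtgacaagaagac
The annotated coding part is 348 bases in Suv39h2-204 and 1431 in Suv39h2-201. From the shared ATG, the frame of Suv39h2-204 runs 116 codons and reaches TGA 104 bases after the new junction, at chr2:3464820-3464822. That stop lies 830 bases before the last junction, with 3 junctions after it. By expected counts, Suv39h2-204 held 49.7% and 59.7% of the gene. The assignment of reads was made by the authors, and reads that cross the junctions were not counted separately here. Suv39h2 also overlaps Dclre1c (5.29 TPM) and Gm13184 (8.11 TPM) on the opposite strand. Reads were counted with a strand setting not given in the sources used here.

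Setd2, the main H3K36 trimethylase and the only gene of that role, had 10.2 and 11.4 TPM. All 3 H4K20 methyltransferase genes were detected, with a median of 20.05 ± 0.742 TPM (11.9 in transcripts annotated as protein coding). Kmt5c, for a trimethylase of heterochromatin, had 32.9 and 30.9 TPM. Kmt5a, for the monomethylase, had 19.5 and 20.6 TPM. Kmt5b, the relative of Kmt5c, was lower than both at 4.42 and 5.82 TPM, with no overlap of ranges.

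All 5 other genes with a SET domain were detected, with a median of 10.2 ± 0.75 TPM. Setd3, whose product methylates a histidine of actin and not a histone lysine, led with 30.01 and 32.9 TPM. Setd5 had 18.5 and 18.03 TPM and Kmt2e, which lacks clear methyltransferase activity, had 9.66 and 10.7 TPM. Setd4 had 8.96 and 6.82 TPM. Setd6, which methylates the RelA subunit of NF-kappaB, was lowest at 4.19 and 3.57 TPM.

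The Prdm genes were the lowest group and the most uneven. They encode zinc finger proteins with a PR domain related to SET, and many act as transcription factors with no known enzyme activity. Of 13 genes 8 were detected, with a median of 2.81 ± 0.269 TPM (1.25 in transcripts annotated as protein coding). Prdm4 had 29.7 and 31.2 TPM and Prdm2, also called RIZ, had 28.7 and 28.9 TPM. Both were above all other Prdm genes, since the third, Prdm10, had 4.77 and 4.89 TPM. Prdm8 (4.42), Prdm11 (3.84), Prdm15 (3.75) and Prdm16 (2.81) followed by mean TPM.

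At the low end Prdm6 had 0.91 and 0.68 TPM. Prdm1, also called Blimp1, and Prdm14 specify primordial germ cells in the embryo. In the adult testis Prdm1 had 17 and 5 expected counts, 0.10 and 0.03 TPM. Prdm14 had 3 and 0 counts, and Prdm13 had 1 and 0. Counts of 0 allow a level of up to 0.0302 TPM for Prdm14 and 0.0382 TPM for Prdm13 in replicate 2, the level of 3 counts and for counting error only. Prdm12, a gene of sensory neurons, had 9 and 2 counts. Each of these 4 genes was at or under 0.10 TPM in both libraries.

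Both LSD genes were detected. Kdm1a, or LSD1, removes H3K4 mono- and dimethylation and had 38.5 and 40.3 TPM. Kdm1b, or LSD2, known for its part in oocyte imprinting, had 2.02 and 2.34 TPM.

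Of 16 JmjC genes 14 were detected, with a median of 6.76 ± 0.110 TPM. Kdm4d, an H3K9 demethylase gene known for testis expression, led with 69.3 and 69.4 TPM. It lies at chr9:14462548-14500482 on the minus strand, and 99.8% and 99.5% of its level was in 1 transcript. Its relatives were lower, with 19.5 and 17.3 TPM for Kdm4b, 9.05 and 12.3 TPM for Kdm4a and 0.81 and 1.60 TPM for Kdm4c. Kdm4c reached a TPM of 1 in replicate 2 only. Kdm3a, an H3K9 demethylase gene that mouse spermatids need for packaging sperm DNA, had 29.9 and 35.4 TPM, against 6.03 and 6.45 TPM for Kdm3b.

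The H3K36 demethylase genes Kdm2b and Kdm2a followed Kdm4d closely in rank, at 43.3 and 44.4 TPM and 39.6 and 42.5 TPM. Their ranges did not overlap, but the difference was small, 1.09-fold and 1.05-fold. In the H3K4 demethylase family Kdm5b stood out with 37.5 and 37.8 TPM, while Kdm5a had 4.09 and 4.93 TPM, Kdm5c 4.47 and 5.45 TPM and the Y-linked Kdm5d 0.96 and 1.57 TPM, of which complete coding transcripts made up 0.13 and 0.12 TPM. The H3K27 demethylase genes were low. Kdm6b, or JMJD3, had 7.64 and 6.91 TPM and the X-linked Kdm6a, or UTX, had 1.28 and 1.77 TPM. Kdm7a, for a demethylase of H3K9 and H3K27, had 3.48 and 4.38 TPM, and Kdm8, or JMJD5, had 2.79 and 2.67 TPM.

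Summed by substrate, the 6 H3K9 demethylase genes (Kdm3a, Kdm3b and Kdm4a to Kdm4d) reached 134.6 and 142.4 TPM. The 6 H3K4 demethylase genes (Kdm1a, Kdm1b and Kdm5a to Kdm5d) reached 87.5 and 92.3 TPM, the 2 H3K36 genes 82.9 and 86.8 TPM, and the 2 H3K27 genes 8.92 and 8.68 TPM. Each gene was counted under 1 substrate at most. Kdm4a to Kdm4c, which also act on H3K36, were counted under H3K9 only, so the place of the H3K36 sum depends on this choice. Kdm7a, which acts on both H3K9 and H3K27, was in neither sum. With Kdm7a the H3K27 genes reached 12.4 and 13.06 TPM, still the lowest of these sums in both libraries. By TPM the H3K36 sum rested largely on transcripts with no coding annotation or marked for decay. Kdm2a-211, marked for decay, had 22.1 and 24.9 TPM, and non-coding transcripts other than retained introns held 47.2% and 53.03% of the Kdm2b level. By expected counts the picture differed. Complete coding transcripts held 91.6% and 91.3% of the counts of Kdm2a and 80.5% and 78.3% of those of Kdm2b. In transcripts annotated as protein coding, complete or not, the H3K36 genes summed to 38.06 and 35.4 TPM and the H3K4 genes to 79.04 and 81.4 TPM. Transcripts absent from GENCODE M21 were left out of these coding sums, among them the leading transcript of Kdm5a (2.95 and 3.61 TPM).

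Genes of the same pathways outside the naming rule were present almost throughout, with 39 of 41 listed genes detected. Dot1l, the H3K79 methyltransferase, was the highest of 12 other methyltransferase genes at 149.3 and 164.1 TPM, and only Setmar (0.63 and 0.91 TPM) and Mecom (0.23 and 0.16 TPM) were not detected. All 7 genes of Polycomb complex PRC2, which methylates H3K27, were detected at 4.88 to 42.8 TPM, with Ezh2 at 25.02 ± 2.92 TPM and Ezh1 at 12.6 ± 0.318 TPM. All 8 listed subunits of the H3K4 methyltransferase complexes were detected, from Rbbp5 at 6.94 to Dpy30 at 111 TPM. Trim28, the recruiter of Setdb1, had 449 and 444 TPM. Wiz, a partner of the Ehmt1 and Ehmt2 complex, had 26.3 and 24.1 TPM. Among the other demethylase genes Jmjd6 was highest at 60.4 ± 3.97 TPM, and Uty, the Y-linked relative of Kdm6a, had 1.12 and 1.44 TPM.

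The members lie on 21 chromosomes, with 6 each on chromosomes 4 and 5, 3 on the X and 1 on the Y. The X-linked genes were Suv39h1, Kdm5c and Kdm6a. Among 496 detected X-linked protein-coding genes, which had a median of 5.48 TPM, they stood at percentiles 61.9, 46.4 and 9.68. The 49 autosomal members had a median of 7.64 TPM in replicate 1 and 6.91 in replicate 2. Kdm5d, on the Y, was below its X-linked relative Kdm5c by 4.66-fold and 3.47-fold. Most of its level was in transcripts annotated as retained introns or for decay.

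Levels of paralogs were then compared within each library, where depth cancels. Of 14 pairs, 14 had the same order in both libraries and 11 differed by more than 2-fold in both. The widest was Ehmt2 over Ehmt1, 34.3-fold in replicate 1 and 26.0-fold in replicate 2 (log2 ratio 4.90 ± 0.28). Kdm1a exceeded Kdm1b by 19.0-fold and 17.2-fold (4.18 ± 0.10), and Kmt2b exceeded Kmt2a by 17.8-fold and 11.5-fold (3.84 ± 0.44). In the other direction as listed, Kdm5b exceeded Kdm5a by 9.17-fold and 7.66-fold, Kdm4d exceeded Kdm4a by 7.66-fold and 5.64-fold, and Kmt5c exceeded Kmt5b by 7.44-fold and 5.31-fold. Kdm3a over Kdm3b, Kdm6b over Kdm6a, Setdb1 over Setdb2, Kdm5c over Kdm5d and Kmt2d over Kmt2c had log2 ratios of 2.38 ± 0.10, 2.27 ± 0.43, 2.13 ± 0.03, 2.01 ± 0.30 and 1.16 ± 0.10. The remaining 3 pairs, Suv39h2 and Suv39h1, Setd1a and Setd1b, and Kdm2a and Kdm2b, lay within 2-fold.

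**Figure D2:**
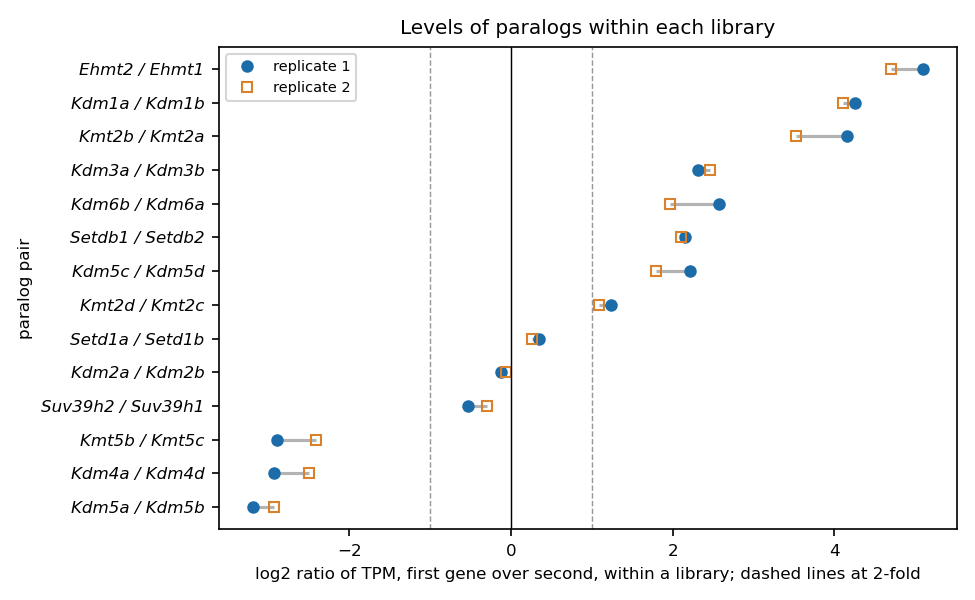
Log2 ratio of TPM of the first gene over the second (horizontal axis) for the 14 paralog pairs, in replicate 1 (filled circles) and replicate 2 (open squares). Dashed lines mark 2-fold, and 3 pairs lie between them.

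Some of these ratios moved when only complete coding transcripts were counted, meaning transcripts annotated as protein coding with both ends of the coding part known. Suv39h2 over Suv39h1 went from a log2 ratio of -0.41 to -1.79 in replicate 1 and -2.06 in replicate 2. Kmt2b over Kmt2a went from 3.84 to 2.12 and 1.62. Kdm5c over Kdm5d went from 2.01 to 4.75 and 4.94, and Kmt2d over Kmt2c from 1.16 to 1.86 and 1.63. Ehmt2 over Ehmt1 was 5.28 and 5.17, as wide as at the gene level. For Kdm5a the leading transcript is absent from GENCODE M21, so its ratio to Kdm5b could not be formed in this way in replicate 2.

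The libraries were compared gene by gene with TMM-scaled expected counts. Of the 49 members with at least 10 counts in each library, 1 differed by more than 1.5-fold. Among all 19521 genes past that minimum 12.3% did, 5.32% higher and 6.99% lower in replicate 2. The exception was Kdm4c, with 131 and 251 counts and a log2 ratio of 0.86 for replicate 2 over replicate 1 (95% exact binomial interval 0.55 to 1.18, counting error only). The median absolute log2 ratio was 0.12 for the members and 0.20 for all genes. The members are also long, with a median effective length of 3994 bases against 1780 for protein-coding genes in replicate 1, and had a median of 1291 counts there against 307.

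Of the 49 members, 35 were higher in replicate 2, against 50.5% of all genes. For 19 the counting interval lay above 0, for 7 it lay below 0, and for 23 it held 0. Among all 19521 genes these shares were 26.0%, 25.6% and 48.3%. Intervals narrow with more counts, and the counts of these 19521 genes were not set beside those of the members. In replicate 1 detected members had a median of 1564 counts, against 1052 for detected protein-coding genes. Kdm6a (log2 ratio 0.53, interval 0.30 to 0.76), Kdm4a (0.51, 0.41 to 0.60), Kdm7a (0.41, 0.30 to 0.52) and Suv39h2 (0.41, 0.25 to 0.56) followed Kdm4c. Setd4 (-0.44, -0.69 to -0.18) and Ehmt2 (-0.21, -0.23 to -0.18) were lower in replicate 2. The summed TPM of the epididymis, peritubular and muscle markers was lower in replicate 2 over the same libraries. Among them Lcn5, Lcn8 and Myh4 had 6 counts or fewer in each library. The Sertoli markers were higher in replicate 2, with sums of 1250 and 1597 TPM. The part of these tissues in the differences was not tested, and 1 library stood on each side.

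**Figure D3:**
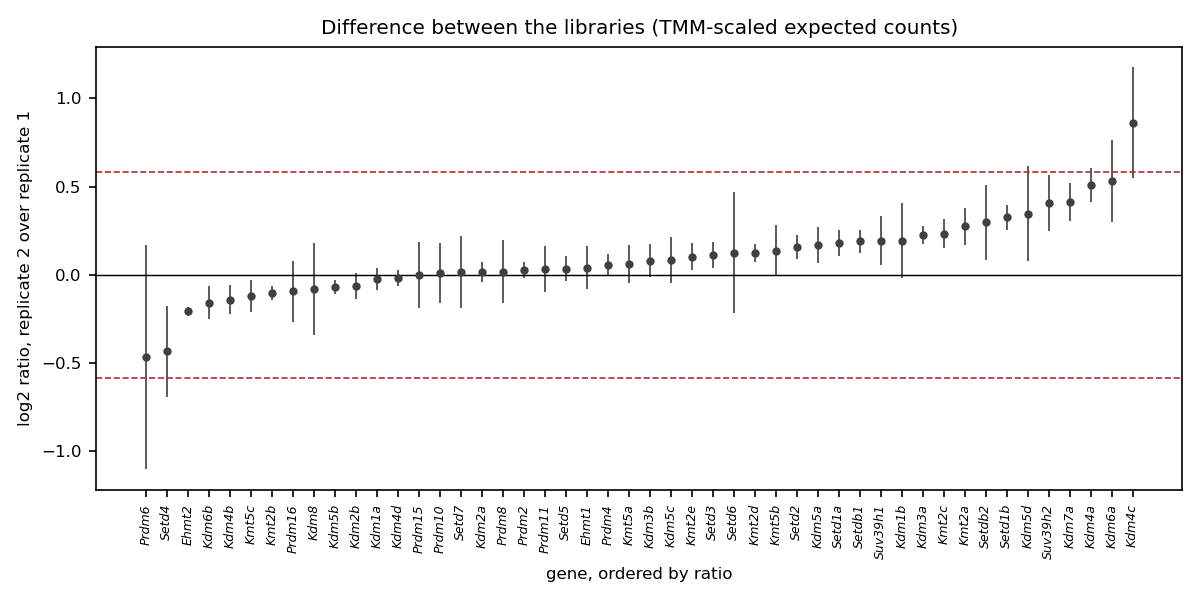
Log2 ratio of replicate 2 over replicate 1 from TMM-scaled expected counts (vertical axis) for 48 of the 49 members with at least 10 counts in each library, with 95% counting intervals as bars. Dashed lines mark 1.5-fold, and Kdm4c alone has its point outside them.

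The transcripts behind the members differed in annotated class. The leading transcript, that with the highest share of a gene's TPM, held a median of 64.7% and 65.4% of the level in the 46 detected members, against 84.5% and 84.8% in detected protein-coding genes. It was the same transcript in both libraries for 36 of 46 members, against 92.0% of detected protein-coding genes. Of the 45 members whose leading transcript is typed in GENCODE M21, 35 were led by a complete coding transcript, where the background share is 86.2%. A further 4 were led by a coding transcript with an incomplete end (Kmt2b, Kmt2c, Kmt2d and Setd4), where the background share is 3.72%. The last 6 were led by a non-coding transcript, where the background share is 10.1%.

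Those 6 were Ehmt2, Kdm2a, Ehmt1 and Suv39h2, led by transcripts annotated for nonsense-mediated decay, and Prdm15 and Prdm16, led by processed transcripts with no coding part. The leader was taken by the mean share over the libraries. In replicate 2 alone the coding transcript Prdm16-206 (34.6%) was above Prdm16-213 (25.8%), and the incomplete coding Prdm15-208 (28.1%) was above Prdm15-209 (26.7%). There the coding Ehmt2-202 (25.2%) was also above Ehmt2-208 (23.5%), and Kmt2a-204, marked for decay (48.5%), was above the coding Kmt2a-201 (48.2%). Kdm2a-211, only 570 bases long, held 55.7% and 58.7% of the Kdm2a level but 6.71% and 7.31% of its expected counts. Ehmt1-206 held 60.8% and 58.3% of the Ehmt1 level and 40.6% and 43.2% of its counts. Prdm15-209 and Prdm16-213, of 720 and 496 bases, held 5.66% and 2.28% of their genes' counts in replicate 1. Ranked by expected counts in place of TPM, 2 of 44 members with a typed leader were led by a non-coding transcript, Ehmt1 and Suv39h2, where the background share is 4.95%. The 6 members with the lowest leading share were Ehmt2, Kmt5b, Setd5, Prdm16, Prdm15 and Kdm2b. Kmt5b-206 held 36.4% of its gene in replicate 1 and 15.8% in replicate 2, where Kmt5b-208 led with 29.9%, while Setd5-201 (28.7% and 31.9%) and Kdm2b-201 (33.95% and 33.05%) led in both libraries. A TPM is divided by length, so a short transcript with few reads can lead a long gene.

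At Ehmt1 and Kdm2a the transcripts for decay are partial models that lack most of the gene. In GENCODE M21, Ehmt1-206 has 9 exons and 1971 bases, against 27 exons and 4680 bases in the coding transcript Ehmt1-203. Kdm2a-211 has 4 exons and 570 bases, against 21 exons and 7242 bases in Kdm2a-202. The junctions below lie in the stretch that each pair shares, and 1 splice site there is placed a few bases apart. Lower case is the upstream exon and capitals mark the downstream exon.
Ehmt1-206: gctgttgagaagacgGGATATCGCTCGAGG
Ehmt1-203: gaagacggtgagcagGGATATCGCTCGAGG
Kdm2a-211: taggctgccaggtagGATTAAAAGACCTCC
Kdm2a-202: tcaataggctgccagGATTAAAAGACCTCC
Both pairs share the downstream exon and end the upstream exon at different bases. All 4 lie on the minus strand of mm10. The first base of the intron is 24805081 on chromosome 2 in Ehmt1-206 and 24805073 in Ehmt1-203. It is 4322382 on chromosome 19 in Kdm2a-211 and 4322386 in Kdm2a-202. The lengths of both Kdm2a transcripts are the same in the deposited tables. There Ehmt1-206 is 1967 bases and Ehmt1-203 is 5107, so the Ehmt1 junctions printed may not be those of the models that were counted.

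Ehmt2 was spread over 5 transcripts with at least 5% of its level on average. Ehmt2-208, marked for decay, had 78.8 and 69.8 TPM. Ehmt2-202, the complete coding form of 3746 bases, had 69.2 and 74.9 TPM, so the order of these transcripts differed between the libraries. Ehmt2-206, an incomplete coding form, had 74.05 and 52.1 TPM, the retained intron form Ehmt2-205 had 56.2 in both, and the complete form Ehmt2-203 had 29.99 and 12.1 TPM. Complete coding transcripts of Ehmt2 summed to 116.3 and 103.7 TPM, 34.2% and 34.9% of the gene, and this was still the highest such sum of the 53 genes. By expected counts they held 61.1% and 61.9%.

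**Figure D4:**
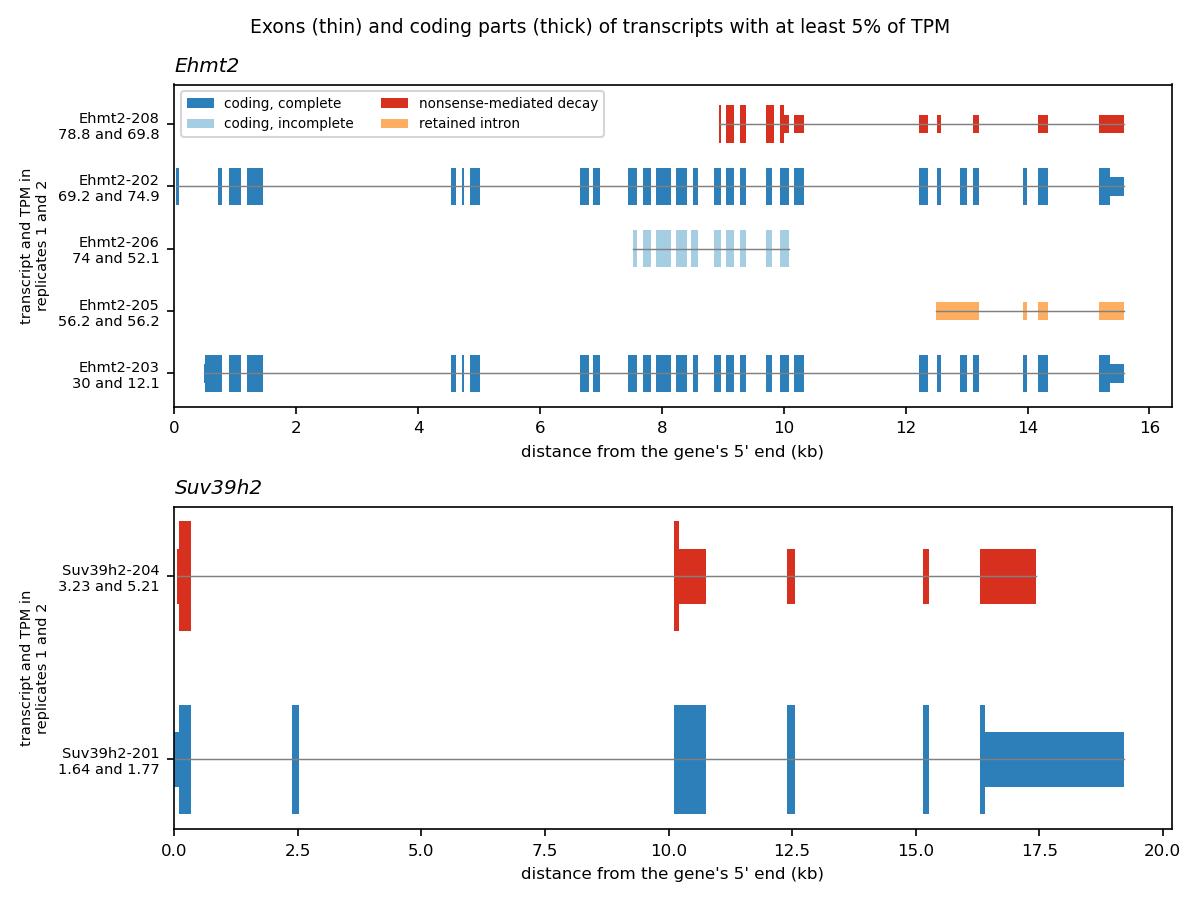
Exons (thin boxes) and coding parts (thick boxes) of the Ehmt2 and Suv39h2 transcripts that hold at least 5% of the gene's TPM, by distance from the gene's 5′ end in kb, with TPM in replicates 1 and 2 beside each name. Only Suv39h2-201 has the second exon near 2.5 kb, and Ehmt2-208, Ehmt2-206 and Ehmt2-205 each cover part of the gene.

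Kmt2b had 14.6% and 13.7% of its level in complete coding transcripts, the lowest share among the 7 highest genes. Its leading transcript Kmt2b-206, an incomplete coding form of 6345 bases, had 29.8 and 29.4 TPM, and complete coding transcripts had 7.91 and 6.65 TPM. Counted that way Kmt2b moved from order 3 to order 22 of the 53 genes. Setd4, Prdm6 and Prdm13 had no level in complete coding transcripts typed in GENCODE M21. Other members were simple. In 10 detected members the leading transcript held over 90% in both libraries, and Setd2, Prdm4, Prdm8, Kdm1b, Kdm3b and Kdm8 had all of their level in 1 transcript.

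**Figure D5:**
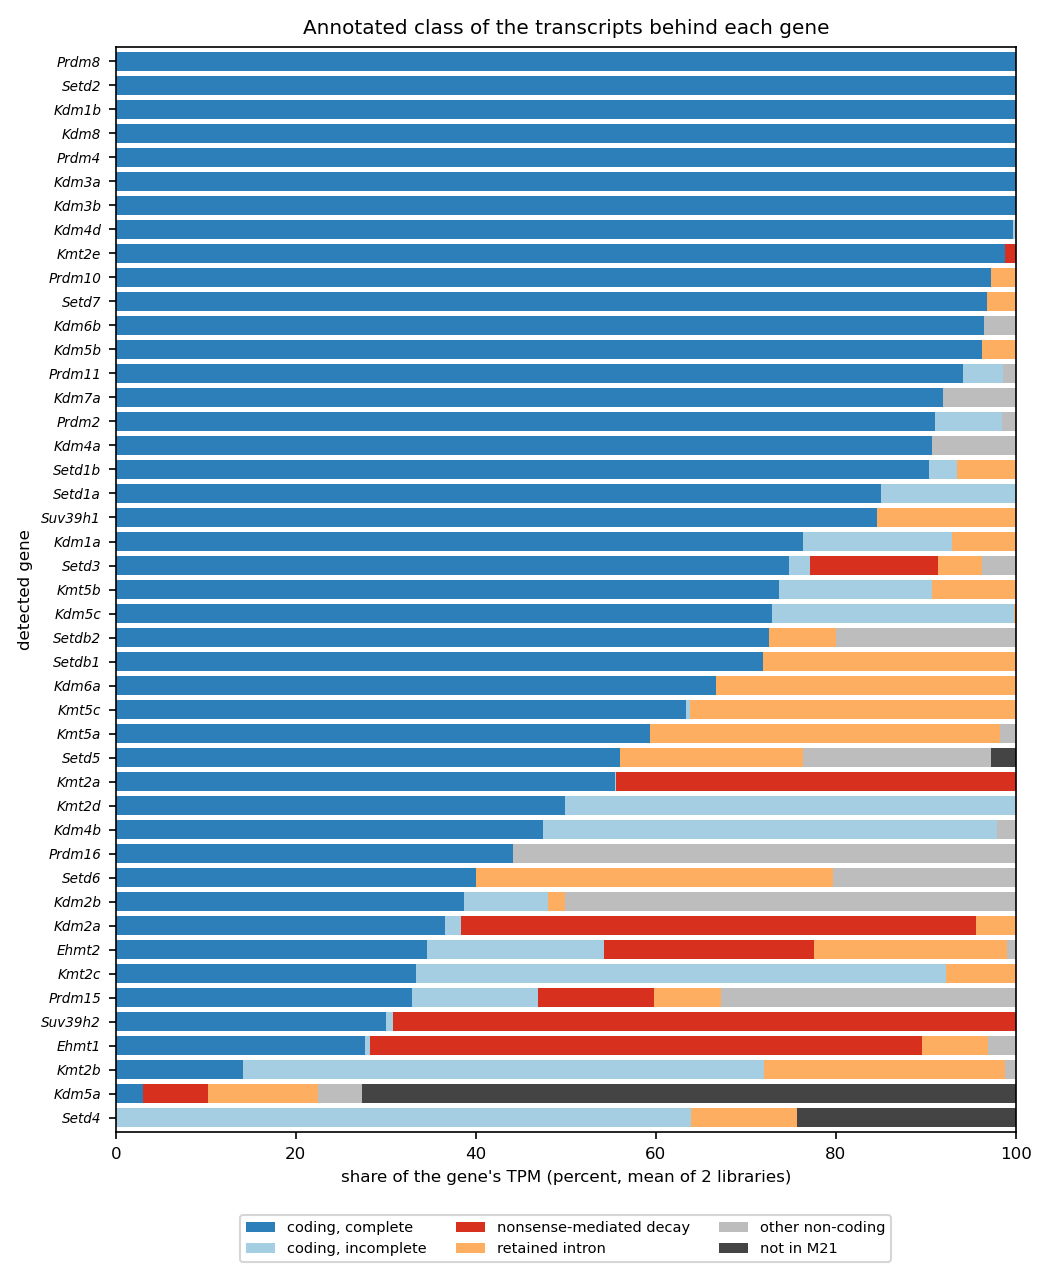
Share of TPM in 45 of the 46 detected members (horizontal axis, percent, mean of 2 libraries) by 6 annotated classes of transcript, ordered by the share in complete coding transcripts. The share runs from all of the level at the top to none for Setd4 at the bottom, and most of Kdm5a is in a transcript that GENCODE M21 lacks.

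Over the 46 detected genes, complete coding transcripts held 57.2% and 59.2% of the summed TPM but 79.5% and 80.6% of the expected counts. Incomplete coding transcripts held 14.7% and 12.5% of TPM, retained introns 12.5% in both, and transcripts marked for decay 11.5% and 11.2%. The median share of level in complete coding transcripts was 80.1% and 72.8% in detected members, against 96.9% and 97.0% in detected protein-coding genes. Gene-level uncertainty from shared reads was small. The deposited posterior SD of the count was 0 in both libraries for 43 of the 53 genes, and no gene with at least 200 counts over both libraries exceeded 1% of its count. In all, 31 members overlap another annotated gene, 11 of them a gene with a mean TPM of at least 1, and these 11 lie on the opposite strand. Overlapping genes with no measured level could not enter that count. Among them is the protein-coding Gm49388, on the same strand as Setd1a over 14515 bases.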

How the data were processed

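Poly(A) RNA longer than 200 nucleotides was sequenced as stranded pairs of 76 nucleotides in 2 testis libraries, per the labels. The deposited expected counts are the authors' estimated read counts per gene and transcript on mm10 with annotation M4, per the deposited readme. The deposited TPM values are those counts scaled by the authors for length and to 1e6 per library, per the file headers. The deposited percent columns give each transcript's share of its gene's TPM. The deposited posterior SD of a count came from the authors' estimation. The authors used an aligner and a counting program not given in the sources used here. The deposited junction and contig files on mm9 were not used here.

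Symbols, gene types, transcript types and sequences came from GENCODE M21 by identifier, and promoters from RefSeq on GRCm38.p6. No protein sequences were used. The members and lists were chosen with earlier results of these data known. By the naming rule, values by library went to the 3 highest genes and the lowest of each role, all paralog pairs, sex-linked members, members past 1.5-fold with at least 100 counts on average, and members with the lowest leading shares or a non-coding leader. Of the genes that fit the symbol rule, 1 was left out and the values of 1 more, which stays in the counts and medians, are not reported here.

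Ratios between libraries used expected counts rounded to whole numbers, TMM scaling (edgeR 4.0.16 in R 4.3.3), at least 10 counts in each library, and exact binomial 95% intervals, which cover counting error only, as does the floor of 3 counts. DESeq2 1.42.0 size factors were an alternative. The ratio step was tested on simulated data. Paralog ratios used TPM with no pseudocount. Other steps used Python 3.11.15 with pandas 2.3.3 and numpy 2.4.6.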

Additional observations from a re-analysis of the deposited data

How the results depend on the processing

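The number of detected members ran from 43 to 49 over 7 alternatives, and leaving out replicate 1 or 2 gave 48 or 46. The median over members was 6.82 and 6.47 TPM in single libraries and 6.79 by posterior mean. It moved to 5.05 with transcripts annotated as protein coding only and to 9.07 over detected members only. Coding transcripts alone, an alternative chosen after seeing the data, moved the role medians to 4.97 TPM for H3K9 methyltransferases, 11.9 for H4K20 methyltransferases, 6.63 for JmjC genes, 19.4 for LSD genes and 1.25 for Prdm genes, and posterior means moved the Prdm median to 3.34. Members past 1.5-fold between libraries numbered 1 by DESeq2 size factors and by posterior mean counts, 2 by the ratio of TPM and 5 with no count minimum and a pseudocount of 1. At 2-fold the number was 0. The median leading share was 64.9% (65.4% and 64.7% with 1 library left out), 62.7% by posterior mean and 76.5% by expected counts. Members with a non-coding leader numbered 6, 4 and 8 with 1 library left out, 7 by posterior mean and 2 by expected counts. Paralog pairs over 2-fold numbered 11, and 10 with a pseudocount of 1 TPM, and no pair changed order under these alternatives. No paired analysis was possible because the labels give 1 group. Depth limited Prdm1, Prdm12, Prdm13 and Prdm14, with 17 counts or fewer in each library.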
